A study of Mus musculus with 2 samples.

Results

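The cells described here are cortical cells of the mouse adrenal gland that carried transcripts of several DNA replication genes, 226 of 6711 cortical cells in 2 single-cell libraries. A cell was a member if it had at least 1 UMI (unique molecular identifier, 1 counted RNA molecule) of at least 5 of 10 genes: Rrm2, Gins2, Hells, Uhrf1, Tyms, Tk1, Mcm2, Mcm3, Mcm5 and Mcm6. It also had to have UMIs of fewer than 6 of 16 genes of G2 and mitosis, among them Mki67, Top2a, Cdk1 and Ccnb1. Cortical cells were barcodes with at least 1000 UMIs, at least 500 genes, at most 30% mitochondrial UMIs and at least 200 CPM of Star (CPM, the UMIs of a gene per 1000000 UMIs of the cell or group), the protein that delivers cholesterol to the inner mitochondrial membrane for steroid synthesis. Of 7328 barcodes, 6904 passed the filters on UMIs, genes and mitochondrial share. The label proposed for the members is S phase. It was borne out by genes outside the rule in only some of them, so they are called replication-gene cells.

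The adrenals came from male mice aged 15 weeks, wild type but for SF1-Cre and the Rosa mTmG reporter, and 26 adrenals were used in the study. SF1-Cre is active in steroid-producing lineages, and mTmG switches a cell from membrane tdTomato to membrane GFP once Cre has acted. Cells positive for the live-cell DNA dye Vybrant DyeCycle Ruby and negative for DAPI were sorted and put through a droplet 3′ kit of version 3.1. Both libraries bear the same group labels, so there is 1 group with n = 2. There was no treatment, and how the animals were divided between libraries, or whether the sort had a gate on DNA content, is not given in the labels used here. P-values therefore set a difference between cell states against how far such differences varied between these 2 libraries, a spread which may be technical. A library term in the fit described below took out the difference between the libraries that all states share. The spread was estimated over all states of the fit and mostly shared between genes, with 14.96 prior against 3 residual degrees of freedom. The p-value of a single gene thus rests only in part on how that gene varied between the libraries.

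Before a cell copies its DNA, the origin recognition complex with Cdc6 and Cdt1 loads the MCM helicase ring onto DNA in G1, and cyclin E activity and E2F factors turn on the genes of S phase. In S phase the GINS complex helps the MCM ring to unwind DNA, PCNA clamps polymerases to the template, and Rrm1, Rrm2, Tyms and Tk1 supply deoxynucleotides. MCM and cyclin E transcripts accumulate before and at the start of S phase, whereas mitotic genes such as Ccnb1 peak later. In the adult adrenal cortex cells divide mostly in the outer part, in or near the zona glomerulosa, and their progeny move inward to become zona fasciculata cells.

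Promoters of rule genes are shown because E2F binding words are the sequence feature that replication genes are best known to share. The 250 bases before the start of transcription, from RefSeq on GRCm38.p6, were searched on both strands for TTTGGCGC, TTTCCCGC, TTTGCCGC and TTTCGCGC. Of the 9 rule genes of replication with a promoter entry, 4 held such a word (44.4%), against 2.16% of 27025 genes with an entry and 4.11% of those in the test described below. These were Hells, Uhrf1, Mcm5 and Mcm6, and the 2 with more than 1 match are printed 5′ to 3′ on the gene's strand, with the matches in capitals. Mcm5 lies on the plus strand at chr8:75109259-75109508 and Mcm6 on the minus strand at chr1:128359706-128359955.
Mcm5: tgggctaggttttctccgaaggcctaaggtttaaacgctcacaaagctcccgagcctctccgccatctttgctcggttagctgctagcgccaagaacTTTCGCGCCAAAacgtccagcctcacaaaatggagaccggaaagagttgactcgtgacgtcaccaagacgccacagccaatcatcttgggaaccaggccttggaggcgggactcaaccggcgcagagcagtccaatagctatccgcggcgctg
Mcm6: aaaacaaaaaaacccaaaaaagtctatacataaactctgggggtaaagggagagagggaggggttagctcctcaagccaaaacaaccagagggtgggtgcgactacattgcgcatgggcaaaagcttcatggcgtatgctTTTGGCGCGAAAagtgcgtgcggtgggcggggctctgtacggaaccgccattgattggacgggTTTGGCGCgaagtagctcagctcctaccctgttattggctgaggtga
Matches on opposite strands overlap in the Mcm5 run and in the first Mcm6 run, where 1 stretch was counted as 2 matches. A match is a description of letters and no evidence of binding.

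Library 1 held 5040 barcodes with 92905273 UMIs and library 2 held 2288 barcodes with 28023733 UMIs. Of these, 4787 and 1924 barcodes were cortical cells. The libraries shared 4 barcodes, none of them a member's. Replication-gene cells numbered 180 in library 1, a share of 3.76% (exact Clopper-Pearson 95% interval 3.24 to 4.34), and 46 in library 2, a share of 2.39% (1.76 to 3.18), where intervals cover counting error only. A rule that counts genes with a UMI favours cells with many UMIs. The members were deep cells, and how much of this came from the rule was not tested. Their median was 24512.5 UMIs in library 1, from 8536 to 100360, and 19982 in library 2, from 2912 to 36837. The 968 and 491 cortical cells with none of the 10 genes served as comparison. No cap on the G2 and mitosis genes applied to them, and 1 and 3 of them had UMIs of at least 6 of the 16. These comparison cells had medians of 14856.5 and 7427 UMIs. The 3569 and 1361 cells with 1 to 4 of the 10 genes lay between, at 18912 and 16276 UMIs.

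When each cell was thinned at random to 5000 UMIs, which left out 218 and 282 shallower cells, the rule found 40 of 4569 cells of library 1 (0.875%) and 12 of 1642 of library 2 (0.731%). Without thinning, the members made up 3.94% and 2.68% of the same cells. The share of members thus depended on depth, and the gap between libraries was smaller at equal depth. Of the thinned members, 31 of 40 and 9 of 12 were also members at full depth.

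The distribution of cells over the number of genes seen had a tail and a second rise. With fewer than 6 of the 16 G2 and mitosis genes, library 1 held 256 cells with 4 of the 10 genes, 92 with 5, 41 with 6, 9 with 7, 18 with 8, 15 with 9 and 5 with all 10. Library 2 held 72 cells with 4 genes, 25 with 5, 10 with 6, 3 with 7, 4 with 8, 4 with 9 and none with 10. Cell numbers thus dipped at 7 genes and were higher at 8 in both libraries, although library 2 had only a handful of cells there. The members fell into 168 cells with 5 or 6 genes (133 and 35) and 58 cells with 7 to 10 genes (47 and 11). This division at 7 was chosen after the distribution was seen and is used for description, with no test. The cells with 7 to 10 genes made up 0.982% of cortical cells in library 1 (0.722 to 1.30) and 0.572% in library 2 (0.286 to 1.02).

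**Figure D1:**
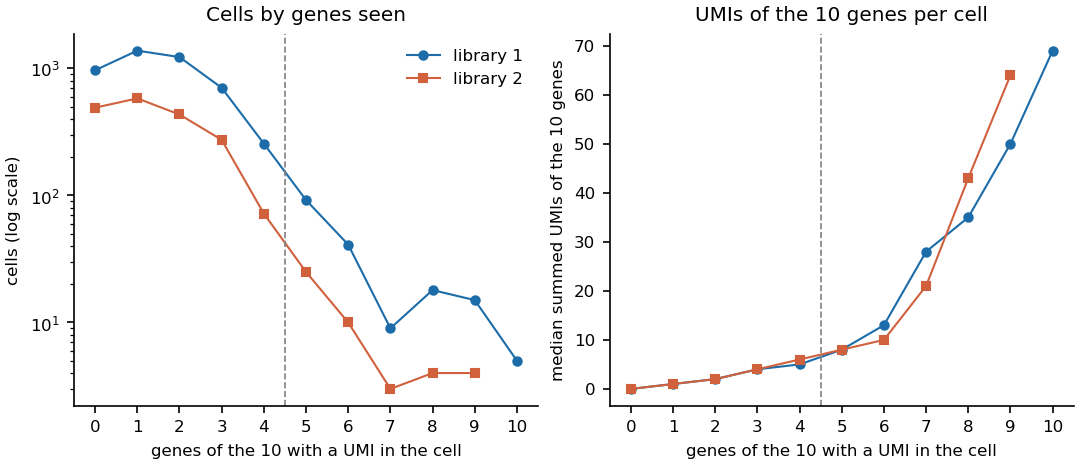
Left, number of cortical cells with fewer than 6 of the 16 G2 and mitosis genes (log scale) against how many of the 10 replication genes had a UMI; right, the median summed UMIs of the 10 genes in those cells. Each line is 1 library and the dashed line is the edge of the rule; cell numbers dip at 7 genes and are higher at 8, and no cell of library 2 had all 10.

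Summed UMIs of the 10 genes ranged from 5 to 33 with a median of 9 in the cells of library 1 with 5 or 6 genes, and from 16 to 88 with a median of 38 in those with 7 to 10. In library 2 the medians were 8 and 48. Total depth was alike in both sets, with median UMIs of 24115 and 25821 in library 1 and 20046 and 19857 in library 2. Among the cells of library 1 with 5 or 6 genes, 4 of 133 still had 5 after thinning to 5000 UMIs, against 27 of 47 of those with 7 to 10. In library 2 these counts were 0 of 33 and 9 of 11. Most cells with 5 or 6 genes were therefore members only at their full depth.

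The 10 genes did not contribute alike. The MCM subunit Mcm6 had the highest level of the 10, at 94.1 CPM in library 1 and 126 in library 2 in cells with 5 or 6 genes, and 352 and 706 in cells with 7 to 10. In cells with 1 to 4 genes Mcm6 stood at 40.0 and 49.9, and Mcm2, another subunit of the ring, at 40.3 and 52.3. Mcm2 was seen in 97.7% and 88.6% of the cells with 5 or 6 genes, and Mcm3 in 88.0% and 91.4%. In cells with 1 to 4 genes they were seen in 52.1% and 55.8% and in 30.3% and 30.6%. Hells, a chromatin remodelling helicase, stood at 52.5 and 58.8 CPM with 5 or 6 genes and at 194 and 325 with 7 to 10. Gins2, a GINS subunit, stood at 24.9 and 26.5, then at 73.1 and 122.

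Of the 4 genes put forward as markers, Uhrf1 and Rrm2 were nearly missing from the larger set. Uhrf1, which brings the maintenance methylase Dnmt1 to newly copied DNA, was seen in 3.76% and 8.57% of cells with 5 or 6 genes and in 78.7% and 90.9% of cells with 7 to 10. Tk1, a thymidine kinase, was seen in 3.01% and 5.71%, then in 63.8% and 45.5%. Rrm2, the regulated subunit of ribonucleotide reductase, stood at 1.69 CPM in library 1 and had no UMI in library 2 in the cells with 5 or 6 genes. It rose no further than 15.3 and 20.3 in cells with 7 to 10 genes, where it was seen in 29.8% and 27.3% of cells. In the 70 and 26 G2/M cells, defined by at least 6 of the 16 genes and at least 1 of the 10, Rrm2 stood at 276 and 310 and was seen in 72.9% and 69.2%. Mcm6 had the opposite order, with 352 and 706 in cells with 7 to 10 genes and 254 and 290 in G2/M cells. These levels follow in part from the rule.

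**Figure D2:**
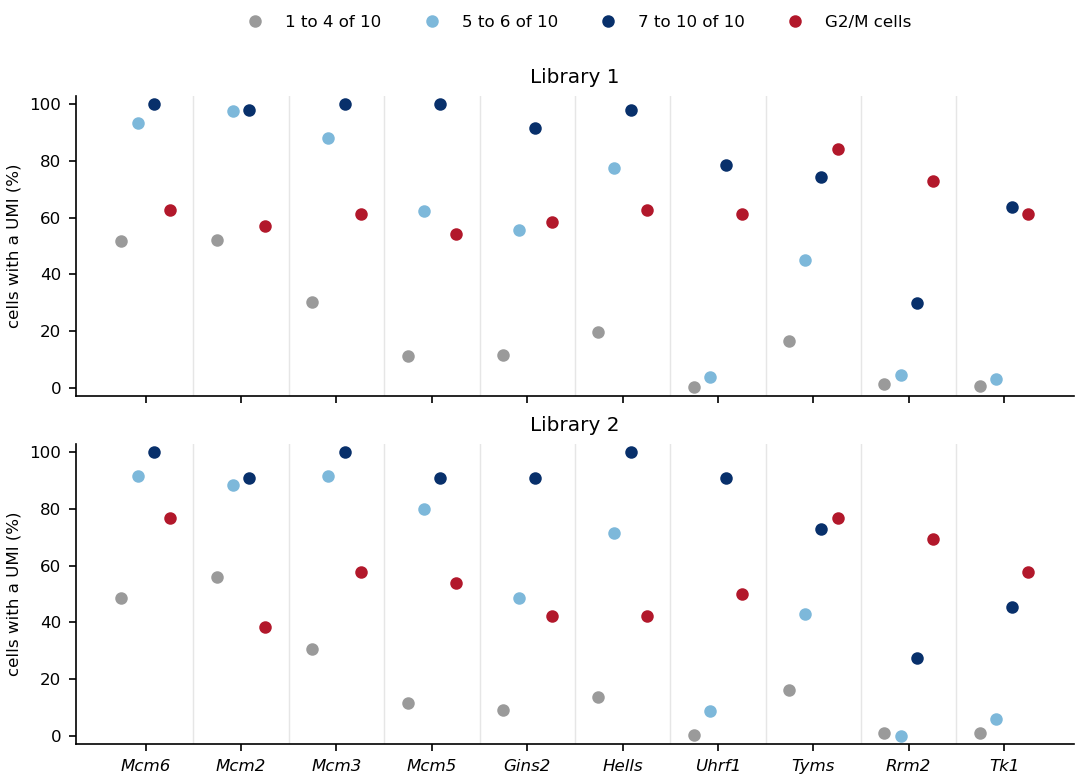
Percent of cells with at least 1 UMI of each of the 10 rule genes, per library, in cells with 1 to 4, 5 to 6 or 7 to 10 of the genes and in G2/M cells. MCM genes are seen in most cells with 5 or 6 genes, Uhrf1, Rrm2 and Tk1 in under 10% of them, and Rrm2 is highest in G2/M cells.

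The rule capped the genes of G2 and mitosis at 5 of 16 in a member. None of the 16 genes was seen in 104 members of library 1 and 30 of library 2, and 1 was seen in 52 and 7. Ccnb1, the mitotic cyclin B1, had no UMI in any of the 226 members, which allows up to 1.33% of cells with a UMI and follows in part from the rule. Top2a, the topoisomerase that untangles copied DNA, was seen in 0.752% and 5.71% of cells with 5 or 6 genes and in 42.6% and 54.5% of cells with 7 to 10. Mki67, the usual proliferation marker, was seen in 8.51% and 18.2% of the cells with 7 to 10 genes and in 95.7% and 100% of G2/M cells. The second part of the rule kept out 43 and 14 cells that had at least 5 of the 10 genes. All 10 genes were seen in 27 and 7 cells with at least 6 of the 16, but in only 5 and 0 members.

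Pcna, the sliding clamp and a standard S-phase transcript, was no part of the rule and lies at chr2:132249162-132253314 on the minus strand (GRCm38). In library 1 it stood at 28.7 CPM in cells with none of the 10 genes, 38.1 with 4, 36.2 with 5, 79.1 with 6, 120 with 7, 201 with 8, 359 with 9 and 499 with 10. In library 2 it stood at 34.7 with none, 34.5 with 4, 55.5 with 5, 62.7 with 6, 122 with 7, 383 with 8 and 524 with 9. Library 1 cells just inside the edge of the rule were thus no higher in Pcna than those just outside, and the level climbed from 6 or 7 genes on. After thinning to 5000 UMIs, Pcna was seen in 63.8% and 90.9% of cells with 7 to 10 genes and in 15.7% and 15.6% of cells with 1 to 4 (100% and 100%, then 47.7% and 42.9%, before thinning). Leukocytes of the same libraries with at least 5000 UMIs, 39 and 27 cells, showed 25.6% and 33.3% after thinning. The full sets of 80 and 66 leukocytes had median depths of 4664.5 and 4420 UMIs, so the shallower ones were left out.

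Mcm4 and Mcm7, the ring subunits left out of the rule, changed across the same range. Mcm4 went from 13.5 CPM in library 1 cells with 4 genes to 18.6 with 5 and 113 with 7 to 10, and in library 2 from 18.7 to 33.7 and 208. Mcm7 went from 34.3 to 39.7 and 172 in library 1 and from 46.7 to 61.4 and 290 in library 2. Lig1, the ligase that seals Okazaki fragments, stood at 12.6 and 11.5 with 4 genes, at 19.7 and 31.7 with 5, and at 151 and 173 with 7 to 10. The label of S phase thus had independent genes behind it mainly in the 58 cells with 7 to 10 genes, and far less in cells with exactly 5, which make up 92 of 180 and 25 of 46 members.

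**Figure D3:**
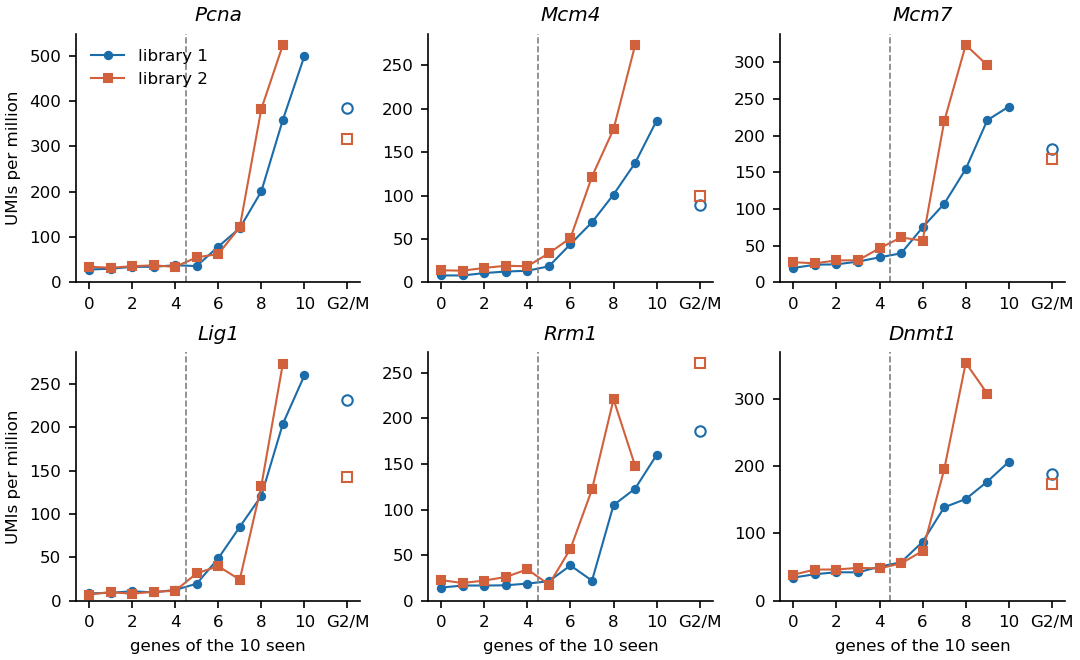
Levels of 6 replication genes outside the rule, in CPM over the UMIs of all cells in a class, against the number of the 10 rule genes seen, per library; open symbols are G2/M cells and the dashed line is the edge of the rule. Levels differ little between 0 and 4 genes beside those at 8 and more, and Pcna reaches 499 in library 1 cells with all 10.

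Members were compared with cells that had none of the 10 genes by summing UMIs per library and state and fitting all genes with edgeR's quasi-likelihood test. The fit had states for members, none, 1 to 4 genes and G2/M, and a library term. The rule divided members and comparison cells on 10 replication genes. Differences in other genes that vary together with these 10 thus follow in part from the rule. Of 11716 genes tested outside the rule, 381 were higher in the members (3.25%) and 247 lower (2.11%) at a Benjamini-Hochberg adjusted p of at most 0.05. All of these had the same sign in both libraries, and 132 and 43 differed by at least 2-fold. Of the higher genes 6, among them Cdc6, Clspn and Exo1, had no UMI in comparison cells. They passed edgeR's low-count filter only through the other states. The median log2 difference over all tested genes was 0.01. Without the library term 66 genes were higher and 0 lower, with 547 genes at an unadjusted p of at most 0.05. Against the cells with 1 to 4 of the genes, whose depth is nearer, 226 genes were higher (1.93%) and 27 lower (0.23%), a comparison added after the data were seen. Of the 381 higher genes 212 were among these, and of the 247 lower genes 26.

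Origin licensing genes were higher in the members for 13 of 21 tested and lower for 0, with a median log2 difference of 2.15. Cdt1, the licensing factor at chr8:122568015-122573554 on the plus strand, stood at 22.9 and 43.1 TMM-scaled CPM in members of libraries 1 and 2, against 1.17 and 0.858 in cells with none. Both libraries thus showed it far higher in the members (log2 difference 4.62 ± 0.36, SE, n = 2, edgeR adjusted p = 1.07e-07, with 4.24 and 5.59 in the single libraries). Mcm4 stood at 51.6 and 72.2 against 8.98 and 13.3 (2.48 ± 0.15, edgeR adjusted p = 4.53e-09). Gmnn, the geminin that holds Cdt1 back after an origin has fired, was at 48.2 and 50.6 against 9.23 and 9.01 (2.39 ± 0.16, edgeR adjusted p = 1.61e-08). Cdc6, which loads the helicase with Cdt1, had 34 UMIs in members and none in comparison cells, at least 30.9-fold higher against 3 UMIs over the group. Of those 34 UMIs nearly all lay in cells with 7 to 10 genes, at 15.3 and 55.9 CPM, against 0 and 1.47 in cells with 5 or 6. Orc1, a subunit of the origin recognition complex, had 14 UMIs in members and 2 in comparison cells, a ratio of 19.1 (95% counting interval 4.38 to 173).

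DNA polymerase and replication fork genes were higher for 30 of 32 and lower for 0, with a median of 1.34. Lig1 stood at 63.5 and 61.4 scaled CPM in members against 9.48 and 6.86 (2.84 ± 0.17, edgeR adjusted p = 3.75e-09). Prim1, the primase subunit that lays RNA primers, was at 20.4 and 25.8 against 1.34 and 1.5. Pcna stood at 109 and 125 against 31.6 and 32.8 (1.82 ± 0.13, edgeR adjusted p = 3.56e-08). In the single libraries the log2 differences were 2.74 and 3.16 for Lig1, 3.89 and 4.08 for Prim1, and 1.78 and 1.93 for Pcna. Pole, the catalytic subunit of the leading-strand polymerase, was higher by 4.48 ± 0.45 on the log2 scale, and Dscc1, part of a clamp loader, by 4.26 ± 0.54. Clspn, which links the fork to the checkpoint kinase, had 50 UMIs in members and none in comparison cells. The members were thus at least 45.4-fold higher, which follows in part from the rule. The count was 25 of 32 against an equal number of comparison cells nearest in depth, and 28 of 32 against cells with 1 to 4 genes. These depth-matched cells had medians of 21788 and 19890 UMIs, so those of library 1 were still shallower than the members.

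Of the genes that supply deoxynucleotides, 8 of 22 were higher and 0 lower (median 0.32). Rrm1, the large subunit of ribonucleotide reductase, stood at 47.5 and 56.0 scaled CPM against 16 and 21.4 (1.5 ± 0.12, edgeR adjusted p = 1.39e-07). In the single libraries Rrm1 was at 1.56 and 1.38.

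Regulators of the G1/S step were mixed, with 11 of 26 higher, 1 lower and a median of 0.41. The E-type cyclins, partners of Cdk2 at the start of S phase, were higher: Ccne2 stood at 4.92 and 11.8 scaled CPM against 0.252 and 0.214, and Ccne1 at 5.11 and 5.39 against 0.420 and 0.858. Their log2 differences were 4.60 ± 0.66 and 3.24 ± 0.52 (edgeR adjusted p = 0.000197 and 0.000615). Ccne2 was at 4.11 and 5.58 in the single libraries and Ccne1 at 3.5 and 2.60. E2f1, a transcription factor for S-phase genes, stood at 25.7 and 33.4 against 6.55 and 5.57 (2.11 ± 0.20). Rbl1, the pocket protein p107, was higher by 2.69 ± 0.27. The D-type cyclins, which respond to growth signals, differed far less: Ccnd1 was higher by 0.62 ± 0.11 and Ccnd2 by 0.31 ± 0.07 (edgeR adjusted p = 0.00151 and 0.0169). Neither passed against cells with 1 to 4 genes (edgeR adjusted p = 0.119 and 0.472). Against depth-matched cells Ccnd1 passed and Ccnd2 did not (0.49 and 0.06, edgeR adjusted p = 0.0173 and 0.873). The lower gene was Cdkn1a, the Cdk inhibitor p21, at 52.4 and 18.3 in members against 92.6 and 42.7 (fell by 0.83 ± 0.14 on the log2 scale, edgeR adjusted p = 0.00072). Cdkn1c, the inhibitor p57, was not called (−0.12 ± 0.09, edgeR adjusted p = 0.486).

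Repair and checkpoint genes were higher for 17 of 27 tested, lower for 0, with a median of 1.58. Pclaf, a small PCNA-binding protein, had 61 UMIs in members and 3 in comparison cells (ratio 55.4, 95% counting interval 18.1 to 276), and Exo1, an exonuclease of mismatch repair, had 45 UMIs and none, at least 40.9-fold higher. Their UMIs too came mostly from the smaller set: Pclaf stood at 29.2 and 76.2 CPM in cells with 7 to 10 genes, against 0.242 and 4.41 with 5 or 6.

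Among histone chaperones and chromatin maintenance genes 14 of 25 were higher and 0 lower (median 0.62). Chaf1a and Chaf1b, subunits of the factor that places histones behind the fork, were higher by 2.73 ± 0.30 and 3.68 ± 0.35 on the log2 scale, and Asf1b, which hands histones to it, by 2.92 ± 0.47. Chaf1a was at 2.38 in library 1 and 4.03 in library 2 alone. Dnmt1 stood at 96.1 and 108 scaled CPM against 38.1 and 36.7 (1.4 ± 0.11, edgeR adjusted p = 1.26e-07). Outside the lists, the largest differences among genes with at least 20 scaled CPM in members included Cdca7, which recruits Hells to DNA (3.63 ± 0.32). Others were Atad2, a chromatin ATPase (2.45 ± 0.21), and Stmn1, the microtubule regulator stathmin (2.24 ± 0.19).

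Histone genes did not follow the chaperones. Of 15 tested, 1 was higher and 2 lower, with a median of −0.29. H2afz, the variant H2A.Z, which has a poly(A) tail and is made in all phases, stood at 780 and 763 scaled CPM against 534 and 449 (0.65 ± 0.06, edgeR adjusted p = 1.5e-06). The lower genes were Hist1h2bc, at 143 and 65.7 against 215 and 171, and Hist1h1c, at 57.3 and 33.4 against 84.0 and 75.0. Neither passed against depth-matched cells (−0.46 and −0.51, edgeR adjusted p = 0.0546 and 0.0666), whereas both did against cells with 1 to 4 genes (−0.57 and −0.50, edgeR adjusted p = 0.00927 and 0.0327). Messages of replication-dependent histones mostly lack a poly(A) tail, and the kit primes on such tails, so their levels here do not measure histone mRNA as a whole. Reads of close histone copies may also be shared. Of mitotic genes outside the rule, 10 of 36 were higher and 0 lower (median 0.81), among them Cenpm, a centromere protein, at 12.5 and 12.9 against 0.503 and 0.858 (4.34 ± 0.38). Of 11 cohesin genes 3 were higher, Pds5b, Smc1a and Smc3, by 0.51 ± 0.11, 0.49 ± 0.08 and 0.41 ± 0.09. Of 18 ribosome biogenesis genes 5 were higher (median 0.19), and of 11 p53 targets 0 were higher and 1 was lower, Bax (−0.34 ± 0.08). Bax passed neither against cells with 1 to 4 genes nor against depth-matched cells (edgeR adjusted p = 0.183 and 0.271), and nor did Pds5b (0.0541 and 0.0577). Among the ribosome biogenesis genes Dkc1 passed both, Nop56 neither (edgeR adjusted p = 0.07 and 0.3) and Nolc1 only the first (0.0473 and 0.252).

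**Figure D4:**
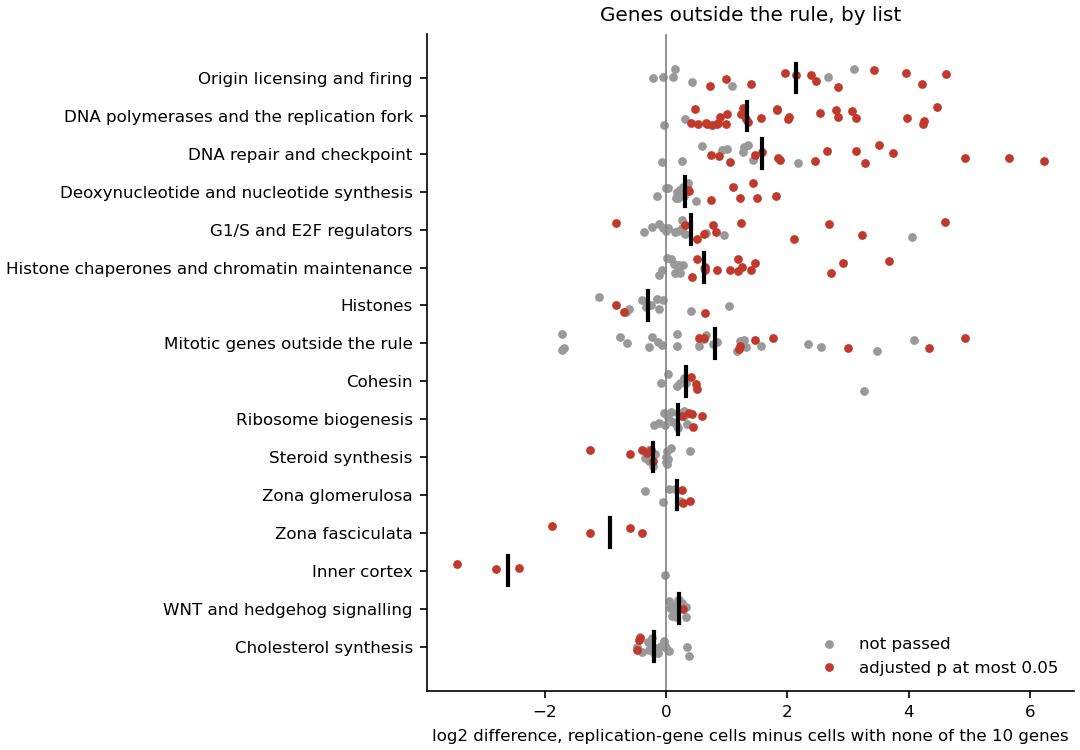
Log2 difference of each tested gene outside the rule between replication-gene cells and cells with none of the 10 genes, by gene list; red points passed an edgeR adjusted p of 0.05, grey points did not, and black bars are list medians. Points with no UMI on 1 side are left out of the drawing but counted in the medians; fork genes lie to the right with a median of 1.34 and inner cortex genes to the left.

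Steroidogenic transcripts were abundant in the members. Star, which the rule used, stood at 2767 and 3005 CPM in members and 2620.3 and 2910.3 in cells with none, and the lowest member had 383 and 343, above the 200 the rule asked for. Nr5a1, which encodes SF1, did not differ by the test (297 and 228 scaled CPM in members, 293 and 228 in cells with none, log2 difference 0.01 ± 0.08). Mc2r, the ACTH receptor, was called in neither direction (0.00 ± 0.07, edgeR adjusted p = 0.997). Of 18 steroid synthesis genes 0 were higher and 6 lower, with a median of −0.22. Cyp11a1, which cuts the cholesterol side chain, stood at 3427 and 2905 against 3935 and 3625 (−0.26 ± 0.06, edgeR adjusted p = 0.00829). Hsd3b1 was lower by a like amount (−0.32 ± 0.06), and so was Cyp21a1, the 21-hydroxylase (−0.22 ± 0.06). None of these 3 enzymes passed against cells with 1 to 4 genes (edgeR adjusted p = 0.267, 0.0669 and 0.359) or against depth-matched cells (0.276, 0.0965 and 0.21). The reporter eGFP stood at 2574 and 2879 against 3369 and 2982 (−0.22 ± 0.07, edgeR adjusted p = 0.0858). It passed against depth-matched cells (−0.33, edgeR adjusted p = 0.0329) but not against cells with 1 to 4 genes (−0.10, edgeR adjusted p = 0.641).

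Zona fasciculata markers were lower in the members for 4 of 4, with a median of −0.93. Cyp11b1, the 11-beta-hydroxylase of that zone at chr15:74834125-74841643 on the minus strand, stood at 232 and 207 scaled CPM in members and 401 and 781 in cells with none. Both libraries showed the members lower (−1.25 ± 0.17, edgeR adjusted p = 7.86e-05, with −0.79 and −1.92 in the single libraries), and the comparison cells differed more between libraries than the members did. Against cells with 1 to 4 genes the difference was −0.80 (edgeR adjusted p = 0.0089). The share of cells with a Cyp11b1 UMI after thinning was 32.2% (25.5 to 39.6) in members and 34.3% (31.0 to 37.7) in cells with none in library 1, and 29.5% (16.8 to 45.2) and 46.2% (40.3 to 52.1) in library 2. Before thinning the shares were 54.4% and 43.4%, then 40.9% and 51.7%, and leukocytes showed 5.13% and 3.70% after thinning. Abcb1b, a membrane exporter, stood at 53.9 and 33.4 in members against 144 and 309 (−1.88 ± 0.26, with −1.42 and −3.21 in the single libraries). It did not pass against cells with 1 to 4 genes (−0.65, edgeR adjusted p = 0.296) but did against depth-matched cells (−1.98, edgeR adjusted p = 0.000304). Mrap, the accessory protein of the ACTH receptor, was lower by 0.60 ± 0.09, and Akr1b7, an aldose reductase, by 0.40 ± 0.09. Mrap also passed against cells with 1 to 4 genes and against depth-matched cells (edgeR adjusted p = 0.0261 and 0.0013), whereas Akr1b7 passed against neither (−0.09 and −0.30, edgeR adjusted p = 0.782 and 0.143).

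Markers of the innermost cortex were lower for 3 of 4 tested (median −2.62). Aldh1a1, a retinal dehydrogenase, stood at 14.7 and 0 scaled CPM in members against 50.9 and 148 (−2.42 ± 0.33, edgeR adjusted p = 0.000109, with −1.79 in library 1 alone). After thinning it was seen in 2 of 180 members of library 1 and 0 of 44 of library 2, where 3 cells would be 6.82% and the exact upper bound is 8.04%. In cells with none it was seen in 12 of 807 and 14 of 286, so a few cells carried the level in each state. None of the 4 genes passed against cells with 1 to 4 of the rule genes. Against depth-matched cells Aldh1a1, Aldh1a7 and Srd5a2 did pass (−2.97, −4.70 and −2.87, edgeR adjusted p = 2.3e-05, 2.3e-05 and 0.00534). The close copies Aldh1a1 and Aldh1a7 may share reads. The factor Hhex, a homeobox protein, was also lower, at 24.8 and 12.9 against 40.3 and 71.2 (−1.11 ± 0.21, with −0.70 in library 1 and −2.46 in library 2 alone). It did not pass against cells with 1 to 4 genes (−0.63, edgeR adjusted p = 0.151) but did against depth-matched cells (−0.92, edgeR adjusted p = 0.0182).

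Zona glomerulosa markers were higher for 3 of 8 and lower for 0 (median 0.18). Wnt4, a ligand of the outer cortex, stood at 2446 and 2204 scaled CPM against 2309 and 1588 (0.27 ± 0.07, edgeR adjusted p = 0.0284). Kcnk9, a background potassium channel, was higher by 0.39 ± 0.07, and Dab2, an endocytic adaptor, by 0.26 ± 0.06. These differences were small, and none of the 3 genes passed against cells with 1 to 4 rule genes (edgeR adjusted p = 0.289, 0.225 and 0.536). Against depth-matched cells Dab2 was at −0.0092 and Wnt4 at 0.25 (edgeR adjusted p = 0.997 and 0.209), while Kcnk9 passed (0.33, edgeR adjusted p = 0.0337). Cyp11b2, the aldosterone synthase at chr15:74851010-74856318 on the minus strand, was at 64.1 and 68.9 against 78.0 and 94.3 and was not called (−0.36 ± 0.10, edgeR adjusted p = 0.0548), although it was lower by 1.07 against depth-matched cells (edgeR adjusted p = 0.000277). After thinning, Cyp11b2 was seen in 18.9% of members and 21.9% of cells with none in library 1 and in 20.5% and 20.6% in library 2, against 0 of 39 and 0 of 27 leukocytes, where 3 cells would be 7.69% and 11.1% and the exact upper bounds are 9.03% and 12.8%. Unthinned shares were 52.8% and 36.9%, then 36.4% and 30.8%. Cyp11b1 and Cyp11b2 are close copies and may share reads. Of 16 WNT and hedgehog genes 1, Wnt4, was higher. Shh, the hedgehog ligand of the outer cortex, and Axin2, a WNT target, were not called (0.04 ± 0.08 and 0.24 ± 0.11, edgeR adjusted p = 0.821 and 0.218).

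**Figure D5:**
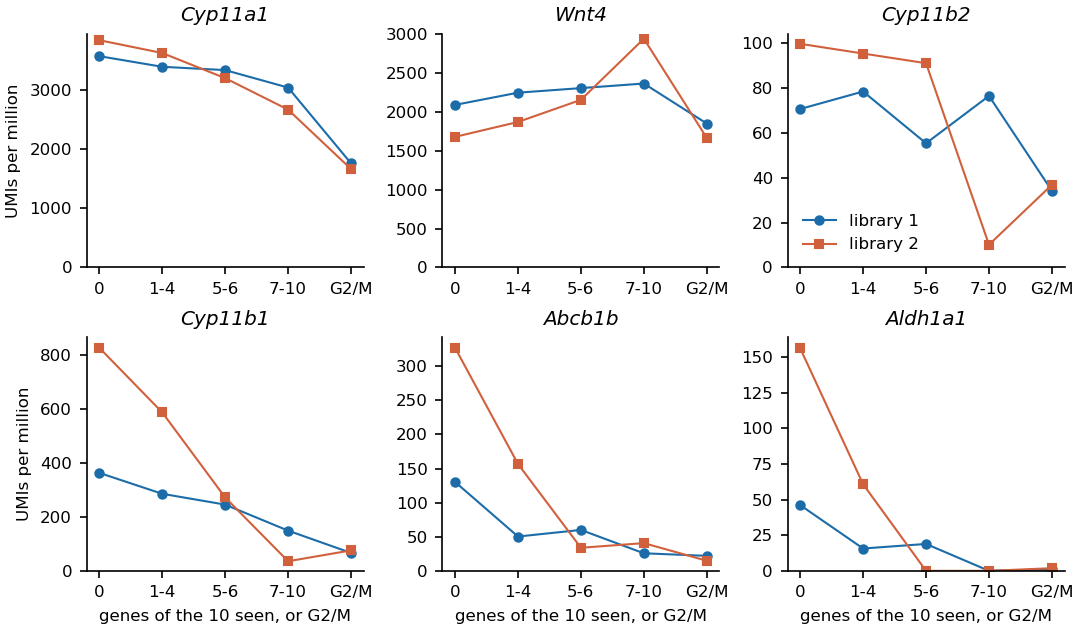
Levels of 6 steroidogenic and zone genes in CPM, per library, in cells with 0, 1 to 4, 5 to 6 or 7 to 10 of the 10 rule genes and in G2/M cells. Cyp11b1, Abcb1b and Aldh1a1 are highest with 0 genes, with most of the difference between libraries there, and Cyp11a1 is lowest in G2/M cells.

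Within the members, Cyp11a1 and Hsd3b1 had lower levels in the cells with 7 to 10 genes, a description of these genes with no test. Cyp11a1 stood at 3329.5 and 3194 CPM in cells with 5 or 6 genes, 3035 and 2663 with 7 to 10, and 1757 and 1661 in G2/M cells. Hsd3b1 stood at 4357 and 3434, then 3444 and 1616, then 1586 and 1203. The order of the 3 groups was the same in both libraries for these 2 genes. Malat1, a nuclear noncoding RNA, went the same way, from 22870.2 and 26053 to 15751 and 17070.2 and then 10586 and 12683, while H2afz went from 563 and 584 to 1249.8 and 1580.5 and then 4089 and 4162.5. Wnt4 did not share this order, at 2307 and 2156, 2366 and 2942, and 1851 and 1666. In library 2 the cells with 7 to 10 genes number 11, so their levels rest on few cells.

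Other genes that were lower than in cells with none included Hmox1, a heme oxygenase (33.1 and 32.3 scaled CPM against 80.8 and 56.8), Ifi27l2a, an interferon-induced gene (18.7 and 3.23 against 61.8 and 48.2), and Acsbg1, an acyl-CoA synthetase (15.1 and 19.4 against 31.2 and 66.5). Hmox1 and Ifi27l2a also passed against cells with 1 to 4 genes and against depth-matched cells, and Acsbg1 against neither (−0.50 and −0.92, edgeR adjusted p = 0.155 and 0.0861). Ifi27l2a was at −1.72 in library 1 and −3.89 in library 2 alone. Of 24 cholesterol synthesis genes 3 were lower and 0 higher (median −0.20), namely Msmo1, Fdps and Dhcr7. These did not pass against cells with 1 to 4 genes (edgeR adjusted p = 0.0512, 0.19 and 0.273). Against depth-matched cells they did (edgeR adjusted p = 0.000312, 0.000436 and 0.0369). Of 16 early response genes 2 were higher and 2 lower. Nr4a2, an orphan nuclear receptor induced by stimulation, was among the higher ones, at 118 and 82.9 against 59.9 and 53.2 (0.86 ± 0.17). Atf3, a stress-induced factor, was lower, with 5 UMIs in members and 125 in cells with none. Neither passed against depth-matched cells (edgeR adjusted p = 0.719 and 0.0732).

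Leukocyte RNA was lower in the members than in the comparison cells. Summed levels of 10 leukocyte markers were 4.67 and 0 CPM in members and 28.4 and 105 in cells with none, and 3 of 6 tested markers were lower. A library 2 level of 0 allows up to 3.42 CPM. Ptprc, the pan-leukocyte surface protein CD45, had no UMI in members, and no member had UMIs of at least 3 of the markers, against 5 and 8 of the cells with none. Cd74, the invariant chain of antigen presentation, stood at 3.78 and 0 scaled CPM against 20.2 and 44.8 (−3.07 ± 0.46, with −2.41 in library 1 alone), and was at 1.33 (edgeR adjusted p = 0.289) once those marked cells were removed. The counts of genes higher and lower were then 382 and 238. Medulla markers had no UMI in members. Summed stromal markers stood at 151 and 173 CPM in members and 133 and 136 in cells with none, and endothelial markers at 7.72 and 6.84 against 10.3 and 6.35, with 0 of 2 tested genes called in each list. By doublet score 11 of the 180 members and 0 of the 46 were among the 191 and 32 highest-scoring barcodes, and the counts without such cells were 405 higher and 261 lower.

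The G2/M cells shared replication genes with the members, and the rule divides the 2 states on the 16 mitotic genes, so a difference in mitotic genes follows from it. In the same fit 1606 genes were higher in members (13.7%) and 1946 lower (16.6%), with 351 and 974 at least 2-fold apart. All 36 mitotic genes outside the rule were lower in members. Kif23, a motor of cytokinesis, had no UMI in members and 435 in G2/M cells, at least 374-fold lower, and Cdc25c, the phosphatase that starts mitosis, had none against 88, at least 75.6-fold lower. Cenpm was not at such a floor, with 66 and 12 UMIs in members of the 2 libraries.

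Replication genes were also lower in the members than in G2/M cells. Of the G2/M cells, 43 of 70 and 14 of 26 had at least 5 of the 10 rule genes themselves. In those cells the summed 10 genes had a median of 2965 and 3100 CPM per cell, against 456 and 532 in members. Most members, 133 of 180 and 35 of 46, had only 5 or 6 of the genes. The fork list had 29 of 32 lower and 0 higher (median −1.27), the repair list 21 of 27 lower and origin licensing 15 of 21 lower. Histones were lower for 15 of 15 (median −2.84), but their levels here do not measure histone mRNA as a whole. In the cells with 7 to 10 genes, Mcm4 stood at 113 and 208 CPM against 89.3 and 99.6 in G2/M cells, higher in both libraries. Cdt1 stood at 64.7 and 163 against 75.5 and 62.7, so its order differed between the libraries. Orc1 stood at 5.57 and 10.2 against 2.55 and 1.85, but these levels rest on very few UMIs, with 14 in all members. In G2/M cells of library 2, 3 UMIs would be 5.54 CPM, so the level there is under that floor. Pclaf, in contrast, was at 29.2 and 76.2 against 290 and 190. These levels are a description, since the set was formed after the values were seen, and the groups differ in the number of cells behind each sum.

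Steroidogenic genes were higher in members than in G2/M cells for 15 of 18 and lower for 0 (median 0.90), zona glomerulosa markers for 7 of 8, zona fasciculata markers for 4 of 4 and mitochondrially encoded genes for 11 of 13. Median depth was 24512.5 and 19982 UMIs in members and 26152.5 and 19944.5 in G2/M cells. Among called genes with at least 20 scaled CPM in members of both libraries and no gene-model name, Ly6k had the largest difference upward. This surface protein of the Ly6 family stood at 53.7 and 65.7 scaled CPM against 2.15 and 0 (5.13 ± 0.40, edgeR adjusted p = 9.68e-09). Psen2, a presenilin (2.63 ± 0.29), and Adh1, an alcohol dehydrogenase (2.19 ± 0.17), came next. All 3 were higher in members of both libraries. Without the library term the counts were 221 higher and 739 lower.

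Among the 381 genes higher in the members than in cells with none, 305 had a promoter entry and 41 of these held 1 of the E2F words listed above (13.4%), against 4.11% of 9091 tested genes with an entry. Among the 247 lower genes 3 of 196 held one (1.53%). Of the origin licensing genes with an entry 6 of 16 held a word, of the fork genes 3 of 26, and of the steroid synthesis genes 0 of 10. Neither Pcna, Lig1 nor Cdt1 held one in this window, which says only that these letters are not there. Of the 16 G2 and mitosis genes of the rule 13 had an entry, 1 with an E2F word and 6 with TTTGAA, the CHR word of genes expressed in G2 and mitosis.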

How the data were processed

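The deposited values were UMI counts for each gene in each barcode. Cell Ranger and build mm10 are named in the submitters' processing notes. The software version was 3.1.0, per the file headers. Both libraries share 31057 features, and the way the authors called cells is not stated in the labels. The depth of each library, which sets the precision, is in the text.

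UMI counts were summed per library and state and fitted with edgeR 4.0.16 (R 4.3.3, limma 3.58.1), with TMM scaling, its low-count filter, a library term and 3 residual degrees of freedom, which left 11743 genes, 27 of them used to choose cells and not tested. The biological coefficient of variation was 0.0669. The fitting script was also run on simulated counts with means and spread taken from the real fit and no difference between libraries beyond depth. It called 21 of 47 tested genes changed 1.5-fold and 38 of 49 changed 2-fold, with 4 false calls in all. DESeq2 1.42.0 was an alternative. Raw CPM divide by a state's UMIs, and scaled CPM use TMM. SE is the log2 difference over the root of F. Folds against a group without a UMI use a floor of 3 UMIs over the group, and intervals cover counting error only. Scanpy 1.11.5 scored doublets with scrublet, removed only in an alternative at 0.8% per 1000 barcodes. Free RNA was not subtracted.

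The members and gene lists were chosen with earlier results of these data known. Genes were named by rule: the 10 largest called differences in each direction (6 for G2/M cells) of 1 sign in the 2 libraries, with at least 20 scaled CPM and no gene-model name, up to 3 per list and direction, and some by name. Not every gene so chosen is reported here. Gene positions are from GENCODE on GRCm38, promoters from RefSeq.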

Additional observations from a re-analysis of the deposited data

How the results depend on the processing

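Without the library term (no replicate block) 66 genes were higher and 0 lower in members than in cells with none, and 221 higher and 739 lower than in G2/M cells, from 381 and 247, and 1606 and 1946. The libraries carry no numbers in their labels that pair samples, so the term stands for the library. Against cells with 1 to 4 of the genes the counts were 226 and 27, and against 1 depth-matched cell per member 189 and 62, of which 173 and 40 were among the original calls; fewer comparison cells entered. Without the low-count filter 442 were higher and 456 lower than in cells with none. Reversed values were Dab2, at −0.0092 against depth-matched cells, and Cd74, at 1.33 without leukocyte-marked cells and 0.52 against depth-matched cells, none of them called. DESeq2 gave 305 and 267, with 456 adjusted p-values not given.

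The mean share of members, 3.08%, was 7.62% with at least 4 genes, 1.46% with at least 6 and 0.803% after thinning; without either library it was 2.39% to 3.76%. Leaving out a library leaves no residual degrees of freedom, so no count of calls could be had. Without library 1, 36 of 99 values differed by more than their spread, and without library 2, 12. Among members of library 2, a count of 3 UMIs is 3.42 CPM, and among its G2/M cells 5.54.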
